A study of Mus musculus with 32 samples.

Results

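Expression of 33 genes of glycolysis and of the response to low oxygen was examined in 3 mouse models of glioma and in normal brain. The members were found by gene symbol, or by gene identifier where a symbol had changed, and where a gene had several probe sets, the one of highest mean level was read, taken across all 32 arrays. Of the 33 genes, 32 were measured among 17297 features tested, and Gapdh was not analysed here. A probe set of their own served 29 members, while those of Pgk1, Pgam1 and Eno1 are shared with near-identical copies or pseudogenes, so their values are those of the gene and its copies together.

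Glycolysis splits glucose into pyruvate in the cytosol, and lactate dehydrogenase turns pyruvate into lactate, which monocarboxylate transporters carry out of the cell. Several steps are catalysed by alternative enzymes encoded by different genes, and brain tissue favours some of them: Hk1 over Hk2 for hexokinase, and, in neurons, Eno2 over Eno1 for enolase. When oxygen is short, the prolyl hydroxylases Egln1 and Egln3 lose activity, the HIF subunits Hif1a and Epas1 escape degradation, and the HIF complex raises transcription of glycolytic enzymes and of genes such as Car9, Adm and Bnip3. HIF is regulated mainly at the level of protein stability, which these RNA measurements do not read.

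The series compared gliomas arising after loss of p53, alone or combined with mutation of Nf1, and measured total RNA of bulk tissue on Affymetrix mouse genome arrays. Set Z1 held 9 malignant gliomas of genotype hGFAP-cre;p53KO/+;Nf1+/flox, called cis p53/Nf1 gliomas here, and 3 normal forebrains. Set Z2 held 9 gliomas of genotype hGFAP-cre;p53flox/flox, called p53 gliomas, 4 gliomas of genotype hGFAP-cre;p53flox/flox;Nf1KO/+, called p53 Nf1KO gliomas, 3 normal cerebella and 4 normal forebrains. All gliomas carried Cre recombinase driven by the human GFAP promoter, which is active in astrocytes and in progenitors of the developing brain, so the floxed alleles were open to recombination in many neural cells. The controls are described as wild-type brain, with no other genotype, and neither strain nor age is given in the labels. As a check of the labels, Trp53, which encodes p53, differed from own-set forebrain by -0.34 in cis p53/Nf1 (limma adjusted p = 0.211), -0.29 in p53 (adjusted p = 0.242) and -0.77 in p53 Nf1KO gliomas (adjusted p = 0.031), and whether its probes lie in the deleted part is not known, so it checks little. Nf1 averaged 5.55 ± 0.20 (SD, n = 4) in p53 Nf1KO gliomas, against 6.33 ± 0.35 in p53 gliomas (SD, n = 9) and 6.19 ± 0.01 in Z2 forebrain (SD, n = 4), and differed by 0.07 between cis p53/Nf1 gliomas and Z1 forebrain (adjusted p = 0.785).

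Values are the deposited log2 expression levels, and a difference of 1 is a 2-fold change. The median of an array was 8.48 to 8.57 for set Z1 but 6.90 to 7.06 for set Z2, and what the set names stand for is not given, so each glioma model was set against the forebrain of its own set, and levels were not compared between sets or between genes. The p53 and p53 Nf1KO gliomas share the 4 Z2 forebrains as controls. A gene was called at a limma adjusted p under 0.05 over all 17297 features. Nothing in the labels says whether replicates came from separate animals, so the p-values measure the spread between these samples. p53 glioma 1 stood apart: it lay near forebrain, with only 13.5% of the mean change from forebrain that the other gliomas of its group showed, where those others had 75.1% to 140.5%, and where leaving it out changed a call among the members, both values are given. Its markers of dividing cells averaged 5.51, against 8.63 to 10.38 in the other p53 gliomas and 3.85 to 4.75 in Z2 forebrain. p53 Nf1KO glioma 2 had 45.0% of the mean change of the other 3 of its group, which had 75.5% to 125.4%, with dividing-cell markers of 7.73 against 8.57 to 10.23 in those 3.

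The stretches of DNA just before the transcription start of 7 members are shown because they are the genes the results turn on: the pairs Hk2 and Hk1, and Ldha and Ldhb, and 3 genes that varied widely between p53 gliomas, Car9, Slc16a3 and Adm. Each line holds the 250 bases before the start that lies furthest upstream, 5′ to 3′ on the strand of the gene, from RefSeq on build GRCm38.p6: Hk2 at chr6:82774455-82774704 on the minus strand, Hk1 at chr10:62379909-62380158 on the minus strand, Ldha at chr7:46845554-46845803 on the plus strand, Ldhb at chr6:142507958-142508207 on the minus strand, Car9 at chr4:43506776-43507025 on the plus strand, Slc16a3 at chr11:120948817-120949066 on the plus strand and Adm at chr7:110627407-110627656 on the plus strand. Capitals mark the core letters that the HIF complex can bind, ACGTG or GCGTG, read on either strand (CACGT or CACGC where the match lies on the opposite strand). The palindrome CACGTG holds a match on each strand and was counted on both.
Hk2: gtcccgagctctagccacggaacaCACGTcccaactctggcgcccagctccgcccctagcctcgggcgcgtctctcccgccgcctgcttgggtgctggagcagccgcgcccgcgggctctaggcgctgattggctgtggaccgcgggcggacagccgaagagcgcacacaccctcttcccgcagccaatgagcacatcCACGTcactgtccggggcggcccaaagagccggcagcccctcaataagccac
Hk1: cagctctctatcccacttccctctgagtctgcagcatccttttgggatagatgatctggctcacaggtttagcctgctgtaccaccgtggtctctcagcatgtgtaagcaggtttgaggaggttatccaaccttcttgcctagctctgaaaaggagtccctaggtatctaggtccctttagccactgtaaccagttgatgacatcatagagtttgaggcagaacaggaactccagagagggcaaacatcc
Ldha: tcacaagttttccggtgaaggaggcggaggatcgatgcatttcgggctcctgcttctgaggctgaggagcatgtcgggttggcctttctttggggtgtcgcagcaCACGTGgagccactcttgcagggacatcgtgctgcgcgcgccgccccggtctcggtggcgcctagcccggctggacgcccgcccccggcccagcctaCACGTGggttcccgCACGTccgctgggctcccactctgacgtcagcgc
Ldhb: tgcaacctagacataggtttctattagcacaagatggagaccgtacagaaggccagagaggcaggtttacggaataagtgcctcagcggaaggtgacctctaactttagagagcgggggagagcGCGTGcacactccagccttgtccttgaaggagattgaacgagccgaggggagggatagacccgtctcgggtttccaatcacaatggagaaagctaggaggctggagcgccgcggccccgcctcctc
Car9: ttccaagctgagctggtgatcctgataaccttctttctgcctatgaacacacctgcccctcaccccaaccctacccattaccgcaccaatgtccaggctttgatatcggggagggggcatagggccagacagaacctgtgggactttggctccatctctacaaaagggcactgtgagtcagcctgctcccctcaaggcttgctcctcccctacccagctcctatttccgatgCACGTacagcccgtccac
Slc16a3: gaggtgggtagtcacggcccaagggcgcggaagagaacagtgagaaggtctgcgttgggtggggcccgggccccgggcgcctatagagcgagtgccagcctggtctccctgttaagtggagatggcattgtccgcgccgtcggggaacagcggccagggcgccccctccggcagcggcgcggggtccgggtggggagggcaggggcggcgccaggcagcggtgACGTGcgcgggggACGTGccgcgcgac
Adm: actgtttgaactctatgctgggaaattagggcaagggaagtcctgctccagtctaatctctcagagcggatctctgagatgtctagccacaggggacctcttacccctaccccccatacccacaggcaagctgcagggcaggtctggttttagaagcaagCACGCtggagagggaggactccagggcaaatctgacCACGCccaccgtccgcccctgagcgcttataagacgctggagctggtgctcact

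Of the 32 measured members, 29 had such a window and 23 of these held at least 1 match, 16 with ACGTG and 14 with GCGTG. The same window held a match in 38.6% of all 27025 genes with a window and in 43.9% of the 17492 protein-coding ones. Of the protein-coding ones, 17.6% held ACGTG and 33.7% held GCGTG. Ldha held 5 matches, including both strands of 2 palindromes, and at least 5 matches were found in 1.31% of protein-coding genes. Hk2, Slc16a3 and Adm held 2 each, Ldhb and Car9 held 1 each, and the window of Hk1 held none. A second annotated start further downstream had 3 matches for Hk1 and 1 for Ldha, so these counts depend on the start chosen. A match is a description of letters and was not tested as a binding site.

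In cis p53/Nf1 gliomas most glycolytic enzymes fell, while hexokinase 2 rose. Among the HIF subunits and prolyl hydroxylases, Hif1a and Egln1 rose, Epas1 fell and Egln3 was not called. Of the 32 members, 6 were higher than in Z1 forebrain (Hk2, Slc16a1, Pfkfb3, Adm, Egln1 and Hif1a) and 14 were lower, against a background in which 21.9% of all features were called higher and 20.3% lower. Calls of at least 2-fold numbered 2 higher and 8 lower, beside 10.8% and 11.4% of all features. For 5 members every glioma lay above every forebrain and for 10 every glioma lay below, beside 17.9% and 17.8% of all features. In p53 gliomas 4 members were called higher (Hk2, Car9, Egln1 and Hif1a) and 5 lower (Hk1, Pfkm, Pfkp, Ldhb and Ndrg1), with 17.7% and 20.6% of all features called in those directions. In p53 Nf1KO gliomas Hk2 was the 1 member called, higher, where 5.23% of features were called higher and 3.04% lower. Separation of all arrays was seen for 1 member in p53 gliomas, higher, beside 5.2% of features higher and 4.59% lower, and in p53 Nf1KO gliomas for 2 higher and 5 lower, beside 10.1% and 10.5%.

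**Figure D1:**
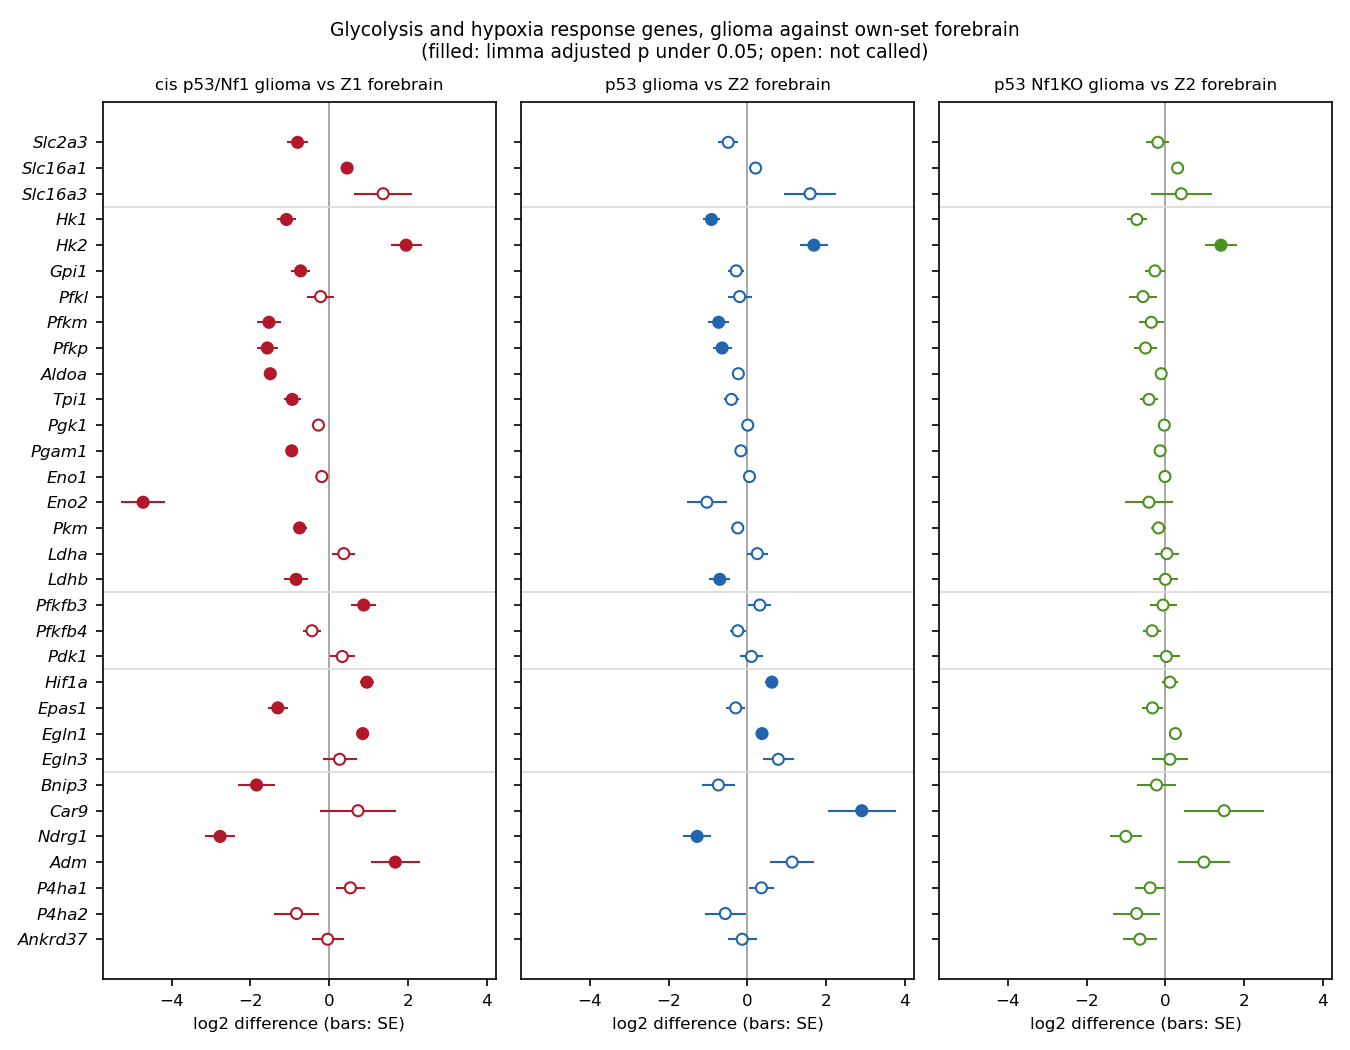
Log2 difference between glioma and own-set forebrain for each of the 32 members (rows, grouped by role) in 3 panels: cis p53/Nf1 gliomas (n = 9) against Z1 forebrain (n = 3), p53 gliomas (n = 9) and p53 Nf1KO gliomas (n = 4) against Z2 forebrain (n = 4). Bars are standard errors of the limma fit, and filled points were called at an adjusted p under 0.05. Hk2 is filled on the right-hand side of 0 in all 3 panels, and Eno2 lies furthest to the left, at -4.73, in cis p53/Nf1 gliomas.

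The plot of differences by member shows most glycolytic enzymes left of 0 in cis p53/Nf1 gliomas, with Hk2 and Ldha to the right. Most lay closer to 0 in the other models, which belong to the other set, where the scale differs. Over the 32 members the median difference was -0.35 for cis p53/Nf1 gliomas, -0.18 for p53 gliomas and -0.15 for p53 Nf1KO gliomas, beside medians of -0.00, -0.04 and -0.07 over all features. For the 15 enzymes between hexokinase and lactate dehydrogenase the medians were -0.84, -0.24 and -0.18. The members called higher were about as frequent as among all features or less so, and no direction is claimed for the list as a whole.

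Glucose enters brain cells through transporters such as Slc2a3, the high-affinity glucose transporter of neurons. It fell by 0.80 ± 0.28 (SE) in cis p53/Nf1 gliomas (limma adjusted p = 0.0201), with levels of 8.57, 9.34 and 10.47 (lowest, median, highest of 9) against 10.06, 10.19 and 10.54 in the 3 Z1 forebrains. In 8 of the 9 gliomas the level lay below every forebrain. Its differences of -0.48 in p53 and -0.19 in p53 Nf1KO gliomas were not called. Without Z1 forebrain 2 the difference in cis p53/Nf1 gliomas was -0.67, with an adjusted p of 0.118.

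Lactate leaves cells through Slc16a3 (MCT4), which is known as hypoxia-inducible, and crosses membranes in both directions through Slc16a1 (MCT1). Slc16a1 was higher by 0.46 ± 0.14 (SE) in cis p53/Nf1 gliomas (limma adjusted p = 0.0105), a call that was lost without Z1 forebrain 1 (adjusted p = 0.124) or 2 (adjusted p = 0.0808). Slc16a3 had large but uneven differences: levels in p53 gliomas were 4.78, 6.63 and 9.30 (lowest, median, highest of 9), against 4.92, 5.28, 4.99 and 4.88 in Z2 forebrain. Of the 9 p53 gliomas, 6 lay above every forebrain and 1 below. The difference of 1.60 ± 0.66 (SE) had a limma adjusted p of 0.056, and without p53 glioma 1 it was 1.83 with an adjusted p of 0.0226. In cis p53/Nf1 gliomas the Slc16a3 difference was 1.37 (adjusted p = 0.138), with 7 of 9 gliomas above every Z1 forebrain, and in p53 Nf1KO gliomas it was 0.40 (adjusted p = 0.773).

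Hexokinase traps glucose as glucose 6-phosphate, and its Hk2 form, known from muscle and from tumours, was the 1 member called higher in all 3 models. Hk2 levels in cis p53/Nf1 gliomas were 9.24, 9.85 and 10.84 (lowest, median, highest of 9), against 7.93, 8.03 and 7.93 in Z1 forebrain. In set Z2 they were 7.55, 8.98 and 10.25 in p53 gliomas (lowest, median, highest of 9) and 8.90, 8.63, 8.88 and 8.49 in p53 Nf1KO gliomas, against 7.30, 7.13, 7.46 and 7.36 in forebrain. Every one of the 22 gliomas lay above all forebrains of its set. The Hk2 difference amounted to 1.96 ± 0.39 for cis p53/Nf1 gliomas (SE, limma adjusted p = 0.000195), 1.69 ± 0.35 for p53 gliomas (adjusted p = 0.000674) and 1.41 ± 0.42 for p53 Nf1KO gliomas (adjusted p = 0.0343). Leaving out p53 Nf1KO glioma 1, 3 or 4, or any 1 of the 4 Z2 forebrains, moved the p53 Nf1KO difference only between 1.35 and 1.49 but took its adjusted p to between 0.0585 and 0.0911.

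Hk1, the general hexokinase of brain, went the other way. Its levels in cis p53/Nf1 gliomas were 10.07, 10.79 and 10.95 (lowest, median, highest of 9), against 11.70, 11.79 and 11.73 in Z1 forebrain. In p53 gliomas they were 6.001, 6.82 and 7.48 (lowest, median, highest of 9) and in p53 Nf1KO gliomas 6.91, 7.80, 7.03 and 6.25, against 7.42, 7.89, 7.63 and 7.96 in Z2 forebrain. No cis p53/Nf1 glioma reached the forebrain range, and p53 glioma 1 was the 1 p53 glioma inside it. Hk1 fell by 1.09 ± 0.24 in cis p53/Nf1 gliomas (SE, limma adjusted p = 0.000475) and by 0.91 ± 0.21 in p53 gliomas (adjusted p = 0.00174), and its difference of -0.73 ± 0.25 in p53 Nf1KO gliomas was not called (adjusted p = 0.0668). Without p53 Nf1KO glioma 2, the highest of the 4 and the one nearest to forebrain over all features, that difference was -0.99 with an adjusted p of 0.00766.

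The balance of the 2 hexokinases was compared within each array, as the log2 level of Hk2 minus that of Hk1, which removes a shift that moves both probe sets of an array alike. Among 10 pairs of related genes and 3 models, 30 such tests were made. The balance moved towards Hk2 by 3.04 in cis p53/Nf1 gliomas and by 2.60 in p53 gliomas. All 9 gliomas lay beyond every forebrain in both models (exact permutation tests, two-sided, p = 0.00909 and 0.0028, the smallest these group sizes allow; adjusted p = 0.0455 for both). In p53 Nf1KO gliomas the shift was 2.14, in all 4 gliomas, with an exact permutation p of 0.0286, the smallest that 4 against 4 allows, and an adjusted p of 0.0857. With any 1 array of set Z1 left out no pair was called in any model, where the smallest p that set Z1 allows is larger.

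**Figure D2:**
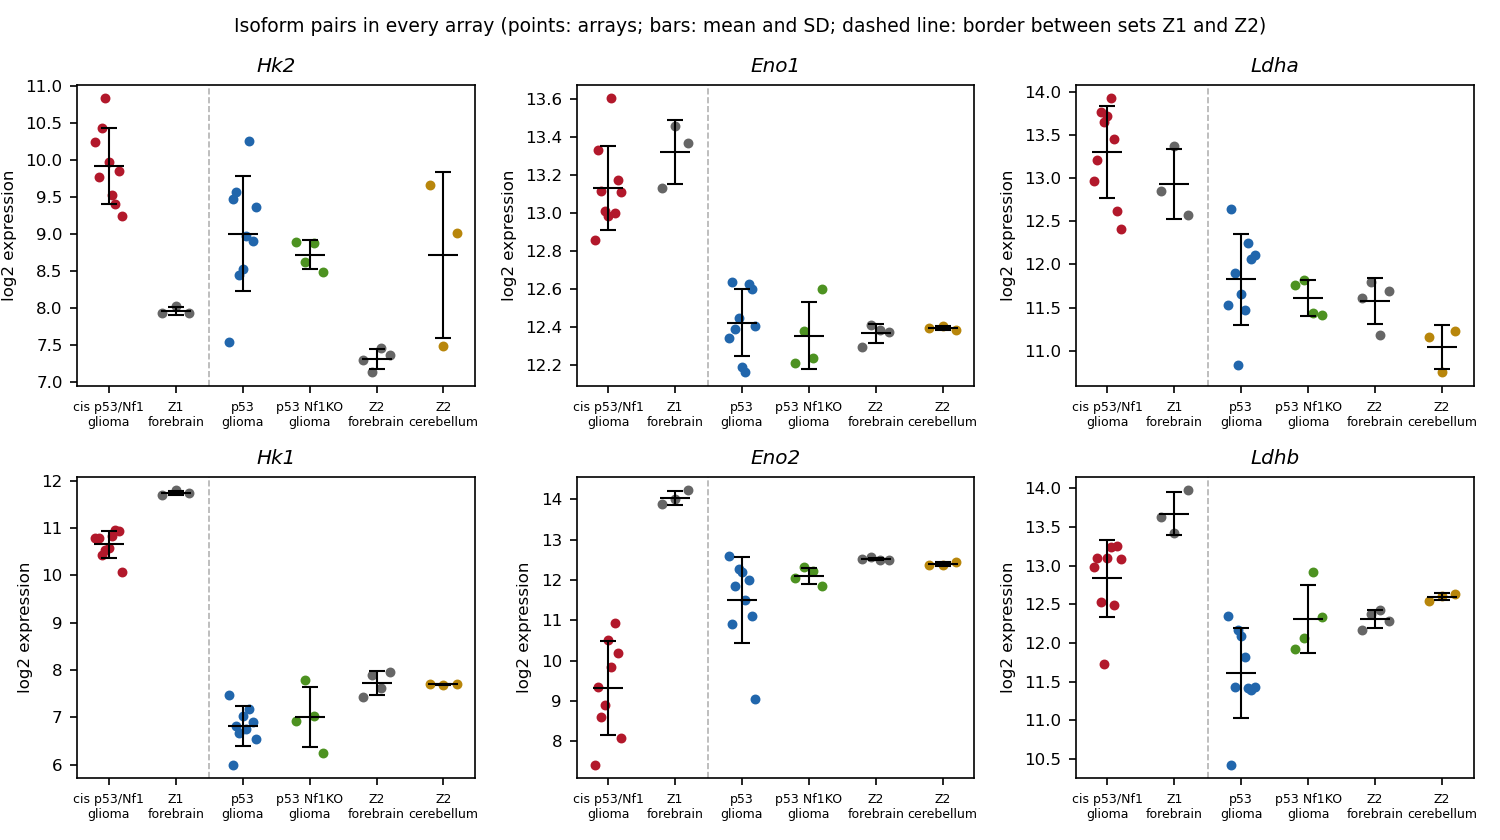
Log2 expression of 3 pairs of related enzymes in every array: Hk2 above Hk1, Eno1 above Eno2 and Ldha above Ldhb. Points are arrays, horizontal bars the mean and SD of each group, and the dashed line separates set Z1 (cis p53/Nf1 glioma, forebrain) from set Z2 (p53 glioma, p53 Nf1KO glioma, forebrain, cerebellum). Each panel has its own axis, and levels on either side of the line are not comparable. Hk2 lies above own-set forebrain in all gliomas, while Eno1 overlaps with forebrain in each model.

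Phosphofructokinase commits sugar to glycolysis, and 2 of its 3 genes were called. Pfkm, the muscle-type subunit, fell by 1.53 ± 0.30 (SE) in cis p53/Nf1 gliomas (limma adjusted p = 0.000132) and by 0.73 ± 0.27 in p53 gliomas (adjusted p = 0.0325). Pfkp, the platelet-type subunit, fell by 1.57 ± 0.27 (adjusted p = 2.47e-05) and by 0.64 ± 0.24 (adjusted p = 0.0354). All 9 cis p53/Nf1 gliomas lay below every Z1 forebrain for both genes, and 8 of 9 p53 gliomas lay below every Z2 forebrain. Pfkl, the liver-type subunit, had differences of -0.22 for cis p53/Nf1, -0.19 for p53 and -0.57 for p53 Nf1KO gliomas, and none was called. The balances within arrays of Pfkl over Pfkm and of Pfkp over Pfkm were not called in any model (exact permutation tests, adjusted p = 0.114, 0.402 and 0.571 for the first pair and 0.818, 0.767 and 0.522 for the second), so a different response of the 3 genes was not shown. A further probe set of Pfkp, shared with the neighbouring gene Pitrm1, read 0.89 ± 0.16 (SE) higher in cis p53/Nf1 gliomas, and with both averaged the Pfkp call was lost (-0.34, adjusted p = 0.0786). The p53 calls of Pfkm and Pfkp were each lost on leaving out any 1 Z2 forebrain or p53 glioma 2, 6 or 9, with adjusted p between 0.0534 and 0.076 for Pfkm and between 0.051 and 0.115 for Pfkp.

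Among the enzymes in the middle of the pathway, the fall was clearest for Aldoa, the aldolase that cleaves fructose 1,6-bisphosphate. Aldoa levels in cis p53/Nf1 gliomas were 12.93, 13.46 and 13.78 (lowest, median, highest of 9), against 14.75, 15.12 and 14.87 in Z1 forebrain. In set Z2 they were 12.50, 12.72 and 12.99 in p53 gliomas (lowest, median, highest of 9) and 12.88, 12.99, 12.85 and 12.68 in p53 Nf1KO gliomas, against 12.95, 12.99, 12.86 and 13.03 in forebrain. The cis p53/Nf1 gliomas all lay below the lowest Z1 forebrain, and the Z2 groups overlapped. Aldoa fell by 1.50 ± 0.12 (SE, limma adjusted p = 2.28e-09) in cis p53/Nf1 gliomas, and its differences of -0.23 and -0.11 in p53 and p53 Nf1KO gliomas were not called. The p53 difference was called with median-centred arrays (-0.29, adjusted p = 0.0495), with quantile normalization within sets (-0.32, adjusted p = 0.0242) and with the mean of probe sets (-0.38, adjusted p = 0.0363). Other probe sets that Aldoa shares with pseudogenes read -1.95 and -1.75 in cis p53/Nf1 gliomas and -0.35 and -0.56 in p53 gliomas, and the last of these passed the threshold (adjusted p = 0.0191), so the probe sets of Aldoa disagree in the p53 model.

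Of the remaining steps, Gpi1 (glucose 6-phosphate isomerase), Tpi1 (triose phosphate isomerase), Pgam1 (phosphoglycerate mutase) and Pkm (pyruvate kinase) fell in cis p53/Nf1 gliomas, by 0.73, 0.94, 0.95 and 0.75 on the log2 scale, with limma adjusted p of 0.0128, 0.000814, 6.76e-06 and 0.00112. The call of Gpi1 was lost without Z1 forebrain 2 (-0.66, adjusted p = 0.067). Pgk1 (phosphoglycerate kinase, -0.27) and Eno1 (enolase 1, -0.19) were not called there, although Pgk1 was without glioma 2 (adjusted p = 0.0366) or glioma 6 (adjusted p = 0.044). None of these 6 was called in p53 or p53 Nf1KO gliomas, where their differences ran between -0.42 and 0.06. Pkm gives the sum of its spliced forms, which this probe set does not separate.

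Eno2, the enolase of neurons, had the widest difference of all members. Its levels in cis p53/Nf1 gliomas were 7.41, 9.34 and 10.93 (lowest, median, highest of 9), against 13.89, 14.01 and 14.22 in Z1 forebrain. In p53 gliomas they were 9.04, 11.86 and 12.59 (lowest, median, highest of 9) and in p53 Nf1KO gliomas 12.04, 12.32, 12.22 and 11.86, against 12.53, 12.57, 12.51 and 12.50 in Z2 forebrain. All cis p53/Nf1 and all p53 Nf1KO gliomas lay below every forebrain, and so did 8 of 9 p53 gliomas, while p53 glioma 1 lay above them. Eno2 fell by 4.73 ± 0.57 in cis p53/Nf1 gliomas (SE, limma adjusted p = 3.11e-07), a 26.5-fold lower level, and its differences of -1.03 in p53 and -0.42 in p53 Nf1KO gliomas were not called (adjusted p = 0.113 and 0.686). The balance of Eno1 over Eno2 moved by 4.54 in cis p53/Nf1 gliomas (exact permutation p = 0.00909, adjusted p = 0.0455). In p53 gliomas it moved by 1.08 (exact permutation p = 0.0168, adjusted p = 0.0629; without p53 glioma 1, 1.23 with adjusted p = 0.039) and in p53 Nf1KO gliomas by 0.41 (exact permutation p = 0.0286, adjusted p = 0.0857).

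Markers of neurons were read beside these results. The mean log2 level of 13 neuron markers was 7.21 to 9.49 in cis p53/Nf1 gliomas, against 12.39 to 12.59 in Z1 forebrain, and all 13 were called lower. It was 6.35 to 10.82 in p53 gliomas and 9.39 to 10.49 in p53 Nf1KO gliomas, against 10.67 to 10.94 in Z2 forebrain, with 11 of 13 and 0 of 13 called lower. Of 7 astrocyte markers 5, 2 and 0 were called lower in the 3 models in that order, and of 7 myelin markers 4, 2 and 0. All 4 markers of oligodendrocyte progenitors and all 6 of dividing cells were called higher in each model. In these bulk samples fewer cells of a type and less RNA per cell cannot be told apart, and the part of the neuron markers in the differences of Eno2, Hk1 and the other enzymes was not tested. The p53 glioma with the lowest neuron markers, number 9, had the lowest Eno2 of its group (9.04), and the one with the highest, number 1, had the highest Eno2 (12.59). Hk1 in p53 gliomas was lowest in number 2 (6.001), against 6.53 in number 9. Among cis p53/Nf1 gliomas number 7 was highest for neuron markers and Eno2. Number 4 had the lowest neuron markers there, with Eno2 at 8.89, while Eno2 was lowest in number 1 (7.41). In p53 Nf1KO gliomas number 4 was lowest and number 2 highest for both.

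**Figure D3:**
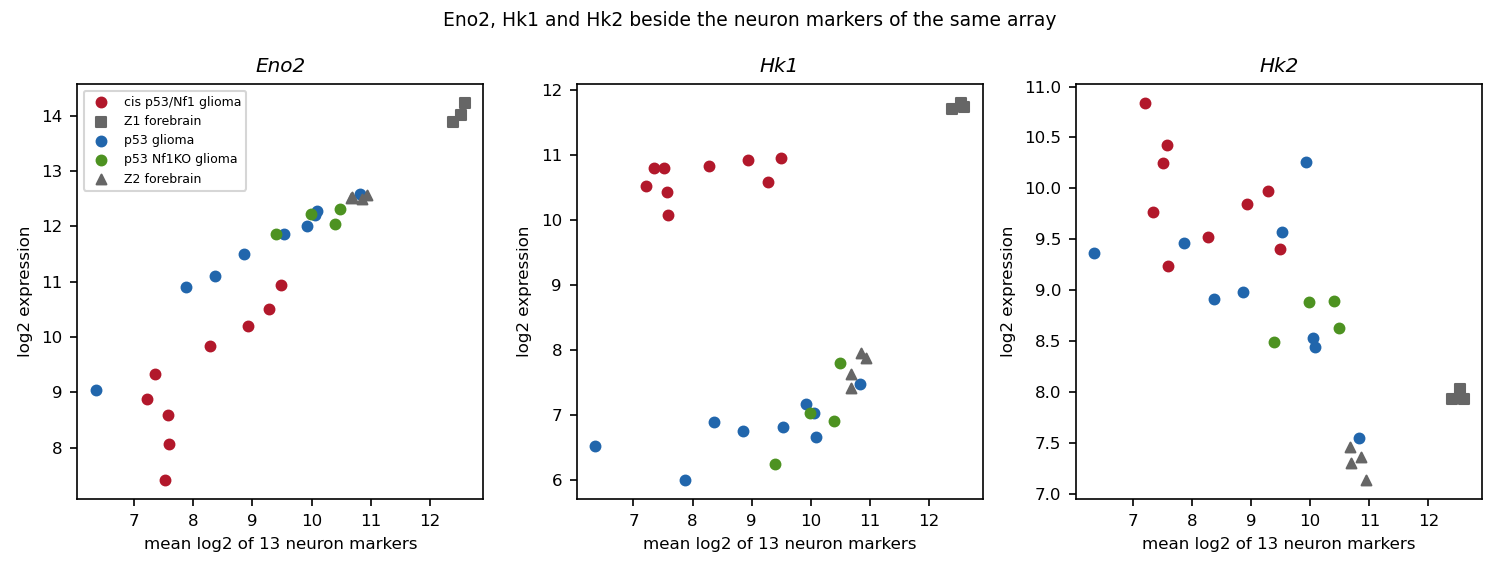
Log2 expression of Eno2, Hk1 and Hk2 (vertical axes) against the mean log2 level of 13 neuron markers in the same array (horizontal axes), for the 22 gliomas and 7 forebrains. Colours and symbols mark the groups. Z1 forebrains lie to the right of all cis p53/Nf1 gliomas in each panel, p53 glioma 1 lies among the Z2 forebrains with the other Z2 gliomas to their left, cis p53/Nf1 gliomas lie at marker levels of 7.21 to 9.49, and each glioma lies above the forebrains of its own set for Hk2.

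Lactate dehydrogenase, the last step, is a tetramer of A and B chains, and B chains prevail in neurons. Ldha levels were 12.41, 13.46 and 13.93 in cis p53/Nf1 gliomas (lowest, median, highest of 9), against 12.85, 13.38 and 12.57 in Z1 forebrain, and 10.83, 11.90 and 12.64 in p53 gliomas, against 11.62, 11.80, 11.19 and 11.70 in Z2 forebrain. The groups overlapped in both sets, and the Ldha differences of 0.37 (cis p53/Nf1), 0.25 (p53) and 0.04 (p53 Nf1KO) were not called. Ldhb was lower by 0.84 ± 0.30 in cis p53/Nf1 gliomas (SE, limma adjusted p = 0.0234) and by 0.70 ± 0.27 in p53 gliomas (adjusted p = 0.0401), with a difference of -0.00 in p53 Nf1KO gliomas. Both calls lay near the threshold. The first was lost without Z1 forebrain 1 (adjusted p = 0.0603) or 3 (adjusted p = 0.132), and with quantile normalization within sets (adjusted p = 0.0521). The second was lost without any 1 of the 4 Z2 forebrains or p53 glioma 2, 3, 7, 8 or 9. There the difference stayed between -0.75 and -0.55, with adjusted p between 0.0566 and 0.095. It was also lost with the mean of probe sets (adjusted p = 0.0543) and with only the compared groups (adjusted p = 0.0729). The balance of Ldha over Ldhb moved by 1.21, 0.95 and 0.04 in the 3 models (exact permutation tests, adjusted p = 0.0992, 0.2 and 0.886).

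Pfkfb3 and Pfkfb4 set the level of fructose 2,6-bisphosphate, the activator of phosphofructokinase, and Pdk1 holds pyruvate back from mitochondria. Pfkfb3 was higher by 0.88 ± 0.32 (SE) in cis p53/Nf1 gliomas (limma adjusted p = 0.029), above every Z1 forebrain in 8 of 9 gliomas. That call was lost without Z1 forebrain 1 (adjusted p = 0.0756) or 2 (adjusted p = 0.137), and with the spread taken from the compared groups alone (adjusted p = 0.0698). Pfkfb4 read -0.44 and the balance of Pfkfb4 over Pfkfb3 moved by -1.31 in the same gliomas (exact permutation p = 0.00909, adjusted p = 0.0455). In p53 gliomas that balance moved by -0.56 (exact permutation adjusted p = 0.142), and by -0.68 without p53 glioma 1 (adjusted p = 0.0455). Neither gene was called in p53 or p53 Nf1KO gliomas, and Pdk1 was called in no model, with differences of 0.33, 0.11 and 0.02.

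The HIF subunits parted in cis p53/Nf1 gliomas. Hif1a, the subunit of the general oxygen response, had levels of 10.38, 11.03 and 11.38 (lowest, median, highest of 9), against 9.89, 10.07 and 10.05 in Z1 forebrain. In set Z2 it had 10.05, 10.29 and 10.65 in p53 gliomas (lowest, median, highest of 9) and 10.01, 9.61, 9.78 and 9.81 in p53 Nf1KO gliomas, against 10.18, 10.02, 9.39 and 9.16 in forebrain. All cis p53/Nf1 gliomas lay above every forebrain, 7 of 9 p53 gliomas did, and the p53 Nf1KO gliomas lay within the forebrain range. Hif1a rose by 0.96 ± 0.18 in cis p53/Nf1 gliomas (SE, limma adjusted p = 0.000107) and by 0.62 ± 0.16 in p53 gliomas (adjusted p = 0.00419), and read 0.12 ± 0.19 in p53 Nf1KO gliomas (adjusted p = 0.74).

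Epas1 (HIF-2alpha), known in brain mainly from blood vessels and astrocytes, fell by 1.31 ± 0.26 (SE) in cis p53/Nf1 gliomas (limma adjusted p = 0.000177). Its levels there were 7.16, 7.41 and 8.96 (lowest, median, highest of 9), against 8.99, 8.54 and 8.98 in Z1 forebrain, and glioma 8 alone lay inside the forebrain range. The differences of -0.30 in p53 and -0.33 in p53 Nf1KO gliomas were not called. The balance of Epas1 over Hif1a moved by -2.26 in cis p53/Nf1 gliomas (exact permutation p = 0.00909, adjusted p = 0.0455), in all 9. In p53 gliomas it moved by -0.92 (exact permutation p = 0.014, adjusted p = 0.0599). The mean log2 level of 8 endothelial markers was 7.46 to 8.73 in cis p53/Nf1 gliomas, against 7.82 to 8.08 in Z1 forebrain, with 2 of the 8 called higher and 1 lower. The mean of 7 astrocyte markers was 7.68 to 10.63 in cis p53/Nf1 gliomas, highest in glioma 8, against 10.77 to 11.17 in Z1 forebrain, with 5 of the 7 called lower, and the part of either cell type in the Epas1 difference was not tested.

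Of the prolyl hydroxylases that mark HIF for degradation, Egln1 (PHD2) rose by 0.85 ± 0.16 (SE) in cis p53/Nf1 gliomas (limma adjusted p = 0.00012), with every glioma between 10.84 and 11.68, against 10.43 to 10.51 in Z1 forebrain. In p53 gliomas Egln1 was higher by 0.37 ± 0.15 (adjusted p = 0.0459). That call was lost with arrays centred on their medians (0.31, adjusted p = 0.093) and on leaving out any 1 of 10 arrays, the 4 Z2 forebrains and p53 gliomas 2, 3, 6, 7, 8 and 9, with adjusted p between 0.0537 and 0.142. Egln3 (PHD3), whose RNA is strongly induced by HIF, was called in no model. Its difference of 0.79 in p53 gliomas came with levels of 7.22 to 9.58 in single gliomas, against 7.31 to 7.98 in Z2 forebrain.

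The genes known as outputs of the hypoxia response did not move as 1 group. Car9, the cell-surface carbonic anhydrase that is widely used as a marker of tumour hypoxia, had levels of 4.43, 11.06, 8.16, 4.35, 4.81, 4.39, 9.05, 6.80 and 8.39 in p53 gliomas 1 to 9, against 4.47, 3.53, 3.61 and 4.05 in Z2 forebrain. Gliomas 2, 3, 7, 8 and 9 were high, glioma 5 lay just above the highest forebrain, and gliomas 1, 4 and 6 lay within the forebrain range. The difference was 2.91 ± 0.87 (SE, limma adjusted p = 0.00983), and with the spread taken from the compared groups alone the adjusted p was 0.0725. The 4 p53 Nf1KO gliomas had Car9 levels of 4.83, 5.81, 5.06 and 5.94, all above every Z2 forebrain, with a difference of 1.49 ± 1.02 that was not called (adjusted p = 0.362) but had an adjusted p of 0.0297 with the spread of the compared groups alone. In cis p53/Nf1 gliomas Car9 ran from 7.69 as the lowest level to 8.79 as the highest, against 7.33 to 7.46 in Z1 forebrain. That difference of 0.73 ± 0.96 had a limma adjusted p of 0.593 with the spread shared over all groups and of 0.00586 with the spread of the compared groups alone, because the SD of Car9 was 0.32 in cis p53/Nf1 gliomas and 2.48 in p53 gliomas.

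Adm, the vasodilator peptide adrenomedullin, rose by 1.68 ± 0.62 (SE) in cis p53/Nf1 gliomas (limma adjusted p = 0.0291). Its levels there were 8.10, 8.77 and 10.23 (lowest, median, highest of 9), against 7.03, 7.17 and 7.30 in Z1 forebrain, and the groups did not overlap. In p53 gliomas 1 to 9 its levels were 5.52, 8.75, 7.42, 5.34, 6.08, 6.16, 9.49, 7.25 and 8.45, against 5.65, 5.89, 6.63 and 5.92 in Z2 forebrain. Gliomas 2, 3, 7, 8 and 9 lay above every forebrain. The p53 difference of 1.14 ± 0.56 had an adjusted p of 0.106, of 0.0443 without p53 glioma 1 and of 0.0429 without p53 glioma 4. Leaving out any 1 of the 3 Z1 forebrains took the adjusted p of the cis p53/Nf1 difference to between 0.0674 and 0.0931.

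**Figure D4:**
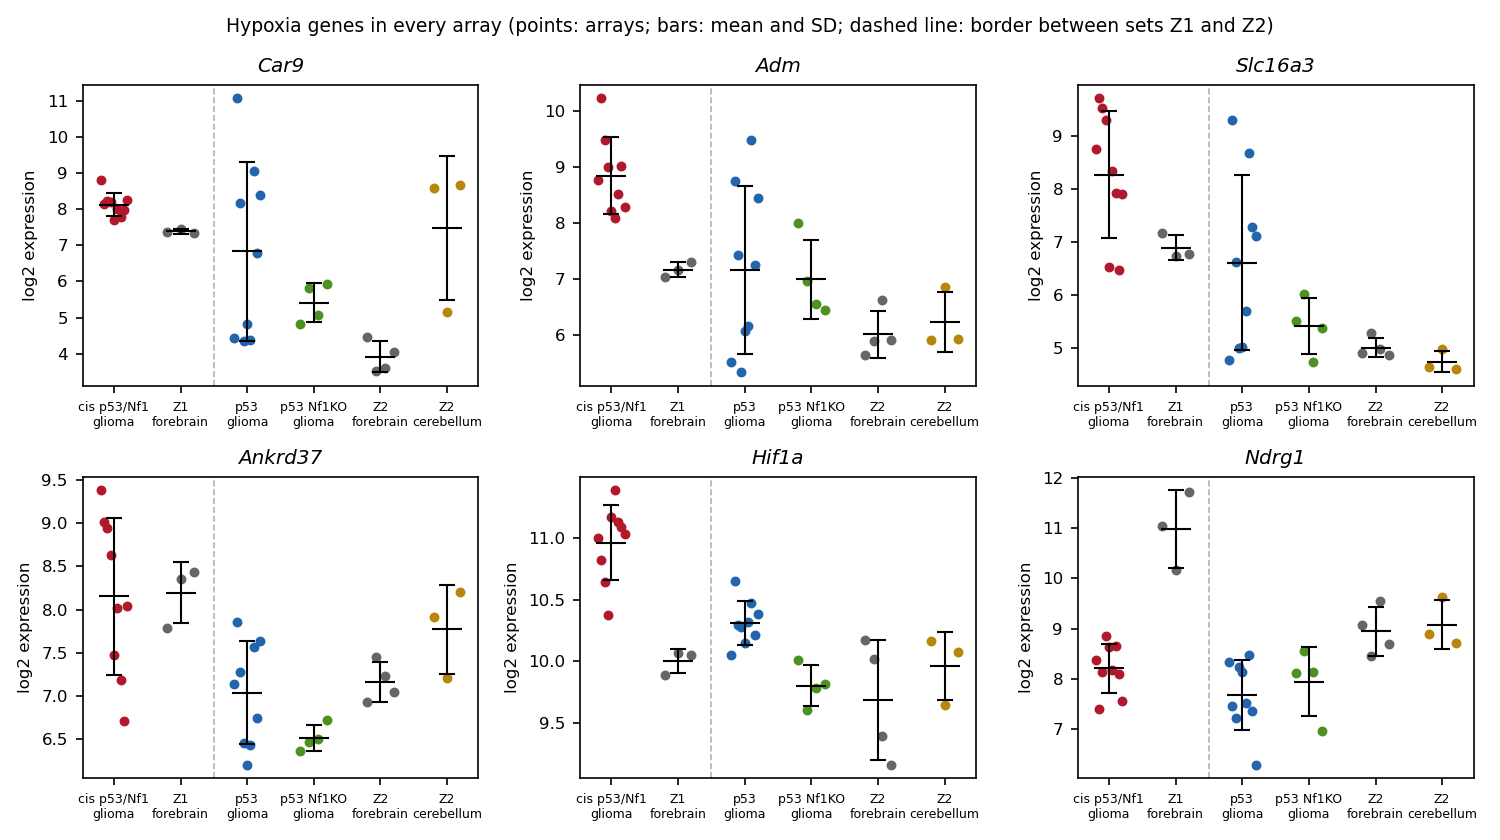
Log2 expression of 6 hypoxia genes in every array. Points are arrays, horizontal bars the mean and SD of each group, and the dashed line separates set Z1 from set Z2, whose levels are not comparable. Car9, Adm and Slc16a3 spread widely among p53 gliomas, up to 11.06, 9.49 and 9.30, and Ndrg1 lies below forebrain in all cis p53/Nf1 gliomas.

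Ndrg1 and Bnip3 fell in cis p53/Nf1 gliomas, where Adm rose. Single p53 gliomas did not always part them: glioma 7 had the highest Adm, Bnip3 and Ndrg1 of its group. Ndrg1, a stress-responsive protein that is also abundant in myelinating cells, fell by 2.77 ± 0.39 (SE) in cis p53/Nf1 gliomas (limma adjusted p = 2.42e-06) and by 1.27 ± 0.35 in p53 gliomas (adjusted p = 0.00576). Its levels were 7.40, 8.18 and 8.85 in cis p53/Nf1 gliomas (lowest, median, highest of 9), against 11.05, 10.18 and 11.72 in Z1 forebrain, and 6.29, 7.52 and 8.48 in p53 gliomas, against 9.07, 8.45, 9.56 and 8.70 in Z2 forebrain. In the first comparison the groups lay apart, and in the second p53 glioma 7 reached the forebrain range. The mean level of 7 myelin markers was 8.94 to 11.49 in cis p53/Nf1 gliomas, against 10.70 to 13.21 in Z1 forebrain, and 9.07 to 10.21 in p53 gliomas, against 10.34 to 11.15 in Z2 forebrain, and its part in the Ndrg1 difference was not tested.

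Bnip3, a mitochondrial protein of mitophagy and cell death, fell by 1.84 ± 0.47 (SE) in cis p53/Nf1 gliomas (limma adjusted p = 0.00201), where levels of 9.11 to 10.82 lay below the 11.46 to 12.13 of Z1 forebrain. In p53 gliomas the Bnip3 levels lay in a low and a high range: gliomas 3, 6 and 9 read 9.80, 9.88 and 9.87, and the other 6 read between 11.25 and 12.58, against 11.66 to 12.26 in Z2 forebrain. Their difference of -0.73 was not called. The collagen prolyl hydroxylases P4ha1 and P4ha2 and the ankyrin-repeat gene Ankrd37 were called in no model. The balance of P4ha2 over P4ha1 moved by -1.37 in cis p53/Nf1 gliomas (exact permutation p = 0.00909, adjusted p = 0.0455), with single differences of -0.83 for P4ha2 and 0.54 for P4ha1. Ankrd37 lay below every Z2 forebrain in all 4 p53 Nf1KO gliomas (6.36, 6.47, 6.51 and 6.72, against 6.93, 7.45, 7.23 and 7.05), with a difference of -0.65 (adjusted p = 0.347).

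The p53 gliomas differed widely from each other in some hypoxia genes. The SD of Car9 among p53 gliomas stood at the 99.9th percentile of all features in that group, that of Slc16a3 at the 98.5th and that of Adm at the 97.7th. p53 glioma 2 had the highest level of its group for 11 of the 32 members, among them Car9, Slc16a3, Egln3, Hif1a, P4ha2, Ankrd37 and Ldha. For p53 glioma 7 the number was 9, among them Adm, P4ha1, Hk2, Pdk1, Bnip3 and Ndrg1. Over all features, p53 gliomas 2 and 7 had 130.5% and 96.85% of the mean change of the others. How often each was the highest over all features was not counted. The median difference of the 7 hypoxia outputs from the forebrain mean was 1.05 in p53 glioma 2 and 0.92 in p53 glioma 7, and between -0.73 and 0.39 in the other 7. Endothelial markers averaged 7.80 in p53 glioma 2 and 7.38 in p53 glioma 7, against 6.64 to 7.56 in the other 7 and 6.71 to 6.98 in Z2 forebrain, and their part was not tested.

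Among cis p53/Nf1 gliomas the median over the 7 outputs ran between -1.14 and 0.81 relative to the Z1 forebrain mean. Slc16a3 read 8.74, 9.70, 9.52, 9.29, 6.53, 8.33, 7.91, 6.47 and 7.90 in cis p53/Nf1 gliomas 1 to 9, against 7.17, 6.73 and 6.78 in Z1 forebrain. Gliomas 5 and 8 lay below every forebrain and the other 7 above. Neuron markers also varied among these gliomas, with means of 7.21 to 9.49, and their part was not tested. p53 Nf1KO glioma 4 had the lowest level of its group for 20 of the 32 members, among them Adm, Bnip3, Ndrg1, P4ha1 and P4ha2. Its level was the highest of the group for Pgk1, Eno1, Car9, Egln1, Egln3 and Ankrd37. Over all features this glioma had 125.4% of the mean change of the others, the largest share in its group. How often it was the lowest over all features was not counted. The median over the 7 outputs was -0.55 in this glioma, relative to the Z2 forebrain mean. The same glioma also had the lowest neuron (9.39) and astrocyte (8.20) marker means of its group. Its mean of dividing-cell markers was the highest (10.23), and the part of these markers was not tested.

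**Figure D5:**
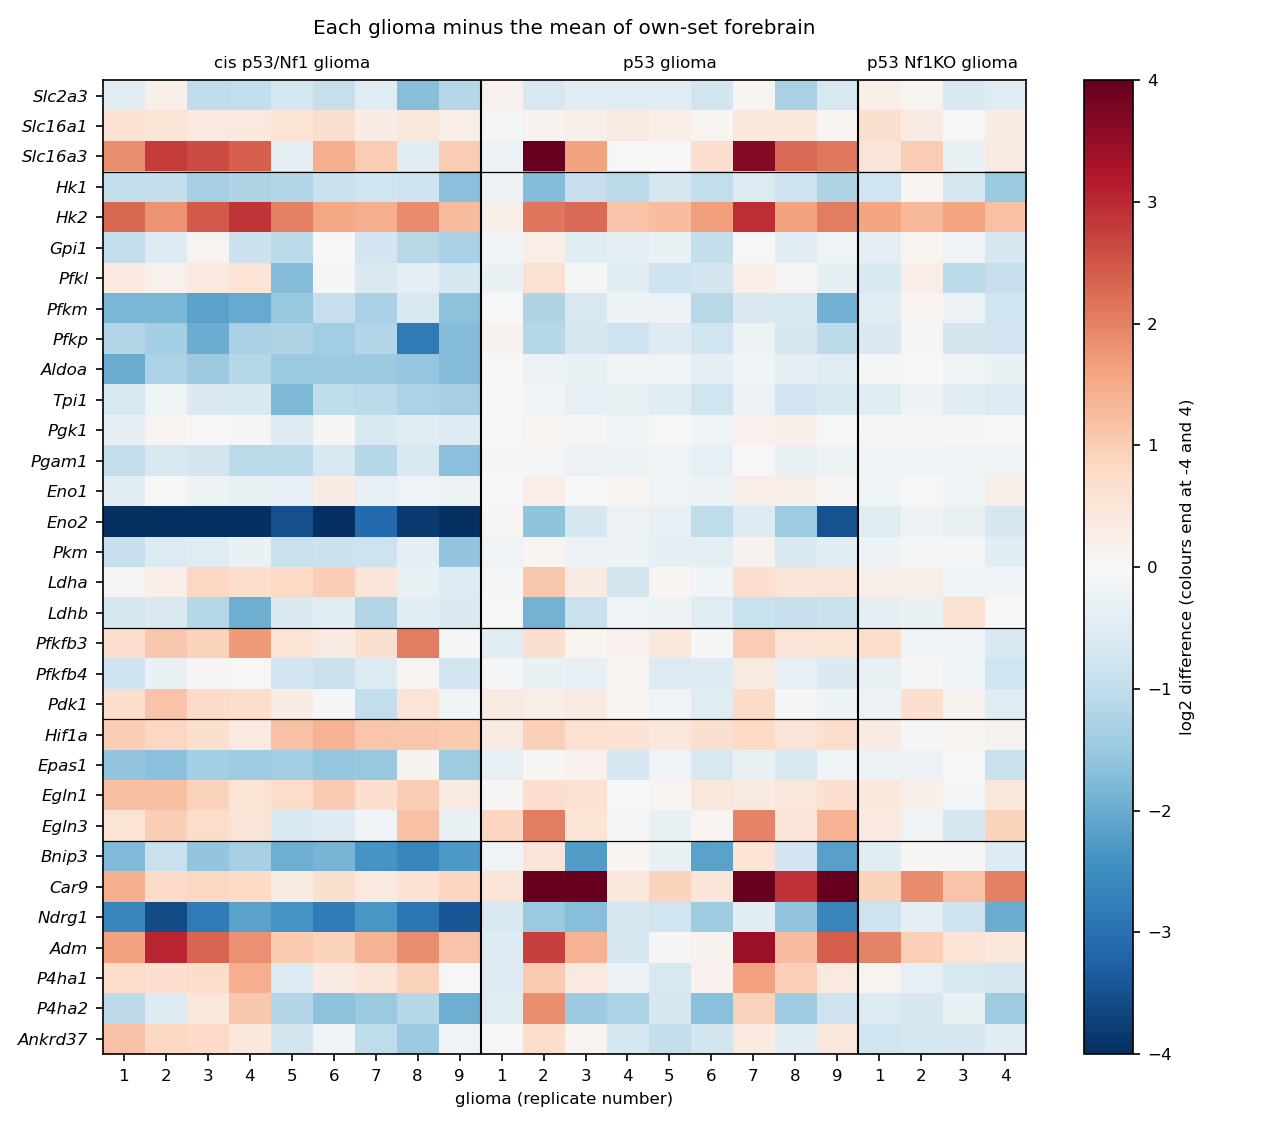
Log2 difference of each glioma from the mean of its own-set forebrain for the 32 members (rows, grouped by role) and 22 gliomas (columns, by model and replicate number). Red is higher and blue lower, and colours end at -4 and 4. The Hk2 row is red in all models, the Eno2 row is dark blue in cis p53/Nf1 gliomas, and Car9, Slc16a3 and Adm are red in some p53 gliomas and pale in others.

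The differences from forebrain were then compared between models, which asks whether the cis p53/Nf1 gliomas changed more than those of the other models. Aldoa fell further in cis p53/Nf1 than in p53 gliomas by 1.27 ± 0.17 (SE, limma adjusted p = 0.00035), Eno2 by 3.70 ± 0.76 (adjusted p = 0.0107) and Pgam1 by 0.79 ± 0.20 (adjusted p = 0.0328). The same 3 members were called against p53 Nf1KO gliomas, with differences of -1.39 for Aldoa, -4.31 for Eno2 and -0.82 for Pgam1 (adjusted p = 0.000195, 0.00458 and 0.0269), and both comparisons share the Z1 arrays and the Z2 forebrains. The 3 calls of 32 stand beside 1.75% of all features called in the first comparison and 3.94% in the second. The neuron markers also fell further in cis p53/Nf1 gliomas, with 3 of 13 called against p53 and 9 of 13 against p53 Nf1KO gliomas, and their part was not tested. Pgam1 lost the call against p53 gliomas on leaving out any 1 of the 7 forebrains, with differences between -0.88 and -0.74 and adjusted p between 0.0505 and 0.116, and against p53 Nf1KO gliomas without Z1 forebrain 2 or 3, Z2 forebrain 3 or p53 Nf1KO glioma 2 (adjusted p between 0.0559 and 0.0807). Epas1 fell further in cis p53/Nf1 gliomas once glioma 8 was left out, by 1.19 against p53 (adjusted p = 0.0092) and by 1.16 against p53 Nf1KO gliomas (adjusted p = 0.0136).

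These 3 genes were near the top of the scale in forebrain. Aldoa stood at the 99.8th to 100th percentile of all features in every forebrain array of both sets, Eno2 at the 99.3th to 99.6th and Pgam1 at the 98.9th to 99.2th. Set Z2 had a within-array SD of 2.58 to 2.66, against 2.01 to 2.12 in Z1. With every array scaled to 1 SD, 6 members were called lower in cis p53/Nf1 than in p53 gliomas and 7 lower than in p53 Nf1KO gliomas. The features called lower also rose, from 187 to 768 of 17297 in the first comparison and from 402 to 1125 in the second. The size of a difference between sets thus depends on the scale.

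p53 Nf1KO gliomas were compared with p53 gliomas within set Z2, groups whose genotypes differ by the Nf1KO allele. The part of that allele cannot be told apart from other differences between these tumours. No member was called, where 0.145% of all features were. Without p53 glioma 1 still no member was called, while the features called numbered 210 higher and 244 lower, against 13 and 12 with it. At an unadjusted p under 0.05, 1 member was higher and 2 were lower, and 12.5% of all features passed that mark. The lowest p was that of Hif1a, which was lower by 0.51 ± 0.16 (SE, limma adjusted p = 0.223), with every p53 Nf1KO glioma, at 10.01, 9.61, 9.78 and 9.81, below the 10.05 to 10.65 of the p53 gliomas. The other 2 were Ldhb, at 0.70 ± 0.27 (adjusted p = 0.304), and P4ha1, at -0.75 ± 0.33 (adjusted p = 0.356). With 4 and 9 gliomas, a difference that was not called does not show that the models are alike.

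The 2 normal regions of set Z2 were compared to see how these genes differ between regions without a tumour. That is not a measure of their spread among forebrains. No member was called between Z2 cerebellum and Z2 forebrain by limma, where 5.15% of all features were called, and 3 members had an unadjusted p under 0.05, as did 16.7% of all features. Car9 read 8.58, 5.16 and 8.67 in cerebella 1, 2 and 4, against 4.47, 3.53, 3.61 and 4.05 in forebrain, a difference of 3.55 ± 1.10 (SE, adjusted p = 0.0579). Hk2 read 9.66, 7.49 and 9.01 in the same cerebella, against 7.13 to 7.46 in forebrain, a difference of 1.41 ± 0.45 (adjusted p = 0.0667). Cerebellum 2 was the low array for both genes, and without it the differences were 4.71 (adjusted p = 0.0108) and 2.02 (adjusted p = 0.00411). Pdk1 was the third, at -0.91 ± 0.36 (adjusted p = 0.168). Cerebella 1 and 4 read above the median p53 glioma for both genes, whose levels were 6.80 for Car9 and 8.98 for Hk2.

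Further genes of these pathways were read from lists of 29 glycolysis and pyruvate genes, 26 of them measured, and 38 hypoxia response genes, 37 measured. Of the 26, 0 were called higher and 9 lower in cis p53/Nf1 gliomas, 2 higher and 7 lower in p53 gliomas, and 0 in either direction in p53 Nf1KO gliomas. Among all features 21.9% were higher and 20.3% lower in the first model, 17.7% and 20.6% in the second, and 5.23% and 3.04% in the third. The largest falls in cis p53/Nf1 gliomas were those of Pdk2, a pyruvate dehydrogenase kinase of brain and other tissues, at -2.16, its relative Pdk4 at -1.77, the muscle-type mutase Pgam2 at -1.63 and the mitochondrial glycerol phosphate dehydrogenase Gpd2 at -1.50. In p53 gliomas Ldhd, a D-lactate dehydrogenase, read -1.42, Pgam2 -1.38 and Pdk2 -1.27, and Hk3, a hexokinase of white blood cells, read 1.03. Microglia and macrophage markers averaged 7.83 to 9.23 in p53 gliomas, against 7.26 to 7.68 in Z2 forebrain, and their part in the Hk3 difference was not tested. Slc2a1, the glucose transporter of the blood-brain barrier, was called in no model, at -0.27, 0.03 and 0.07.

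Of the 37 hypoxia response genes, 12 were called higher and 5 lower in cis p53/Nf1 gliomas, 15 higher and 4 lower in p53 gliomas, and 4 higher and 0 lower in p53 Nf1KO gliomas, to be read beside the same shares of all features (21.9% and 20.3%, 17.7% and 20.6%, 5.23% and 3.04%). Hmox1, the heme-degrading enzyme that also answers to oxidative stress, rose by 3.98 ± 0.72 (cis p53/Nf1), 3.35 ± 0.65 (p53) and 2.67 ± 0.77 (p53 Nf1KO) on the log2 scale (SE, limma adjusted p = 5.88e-05, 0.000346 and 0.03). Lox, which crosslinks collagen, rose by 1.78, 2.70 and 2.42 in the same order, and the 22 gliomas lay above every forebrain of their set for both genes. Others called higher were the collagen lysyl hydroxylase Plod2 (2.50) in cis p53/Nf1 gliomas, Loxl2 (3.70) in p53 gliomas, and the endosomal GTPase Rab20 (1.87) in p53 Nf1KO gliomas. Called lower in cis p53/Nf1 gliomas were Rora (-1.70), Bhlhe40 (-1.57) and Higd1a (-1.26). Several of these genes are known from vessels, connective tissue and macrophages, and the part of those cells was not tested.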

How the data were processed

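Total RNA of 22 gliomas and 10 normal brain tissues was measured on 1 array each. The values are the deposited log2 expression levels of 18328 probe sets of a custom definition, and no source used here gives the normalization that the authors applied to make them. Gene symbols came from RefSeq by gene identifier: 17226 probe sets had exactly 1 gene, 785 several and 317 none. With the probe set of highest mean kept for each of 16195 genes, and probe sets of several or no genes kept as they were, 17297 features were tested in R 4.3.3 with limma 3.58.1, with 1 mean per group over all 32 arrays and Benjamini-Hochberg adjustment over all features; adjusted p-values in the text are from this fit unless an exact permutation test is named. Isoform balances were tested by two-sided exact permutation over arrays with scipy 1.17.1 and adjusted over 30 tests. The code was checked on simulated data. The number of arrays limits the precision.

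Samples were grouped by genotype and tissue in the labels. Deviations of same-numbered samples from their group means had correlations from -0.33 to 0.38. The numbers were not treated as pairs, although these correlations cannot exclude pairing. The alternatives were median-centred arrays, quantile normalization within sets, arrays scaled to 1 standard deviation, the mean of probe sets, the lowest 25% of features left out, only the compared groups, an intensity trend, a threshold of 0.01, a replicate block and each array left out. The members and gene lists were chosen with earlier results of these data known. All members are accounted for, and of the further pathway genes the text names up to 4 with the largest called differences of at least 2-fold in each direction and model, plus Slc2a1, which was chosen after its values were seen. One gene that this rule names is not reported here. The coordinates and promoter letters are those of GRCm38.p6.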

Additional observations from a re-analysis of the deposited data

Results flagged for a closer look

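Single arrays far from the others of their group were found in 11 of 128 gene and group pairs, where chance flags about 1 in 20. Among gliomas, Pfkp read 8.49 in cis p53/Nf1 glioma 8 (others 9.32 to 10.15), Epas1 8.96 in the same glioma (others 7.16 to 7.48), Pkm 11.53 in cis p53/Nf1 glioma 9 (others 12.19 to 12.84), Ldhb 11.73 in cis p53/Nf1 glioma 4 (others 12.49 to 13.25) and Car9 8.79 in cis p53/Nf1 glioma 1 (others 7.69 to 8.24). Eno2 read 9.04 in p53 glioma 9 (others 10.90 to 12.59), Ldhb 10.43 in p53 glioma 2 (others 11.39 to 12.34) and Pgk1 12.25 in p53 Nf1KO glioma 4 (others 12.20 to 12.21). Among Z2 forebrains, Pgam1 read 12.16 (others 12.26 to 12.28) and Pdk1 7.62 (others 8.25 to 8.37) in number 3, and Pkm 12.38 in number 4 (others 12.31 to 12.32).

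The change from forebrain differed between models for 3 genes. Set against the p53 change, the cis p53/Nf1 change was -1.27 for Aldoa, -0.79 for Pgam1 and -3.70 for Eno2, and set against the p53 Nf1KO change it was -1.39 for Aldoa, -0.82 for Pgam1 and -4.31 for Eno2 (log2, limma). The models lie in different sets, and set and model cannot be told apart in these differences.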

How the results depend on the processing

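No called result changed sign under any alternative run. In cis p53/Nf1 gliomas 13 of the 20 called members were called in every alternative, and 0 of 9 in p53 and 0 of 1 in p53 Nf1KO gliomas. At an adjusted p under 0.01, 3 members were higher in cis p53/Nf1 gliomas (6 at 0.05), 2 lower in p53 gliomas (5), 0 higher in p53 Nf1KO gliomas (1), 1 lower in cis p53/Nf1 against p53 changes (3) and 0 of 30 isoform balances called (6). The first 4 of these counts over all features were 2785 (3783 at 0.05), 2063 (3562), 321 (905) and 41 (187). With only the compared groups, 2 were higher and 3 lower in p53 gliomas (4 and 5), 2 higher and 1 lower in p53 Nf1KO gliomas (1 and 0), and 5 lower in cis p53/Nf1 against p53 Nf1KO changes (3). With arrays scaled to 1 standard deviation, 0 were higher in p53 Nf1KO gliomas, 6 lower in cis p53/Nf1 against p53 changes, and 2 higher and 7 lower against p53 Nf1KO changes. Of all features, that scaling called 603 higher in p53 Nf1KO gliomas (905 in the main fit) and 768 lower against p53 changes (187). Against p53 Nf1KO changes it called 1323 features higher and 1125 lower (280 and 402).

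The labels do not say whether equal numbers pair the samples. A fit with the replicate block gave 0 members higher and 0 lower in p53 gliomas, and 0 higher and 1 lower in p53 Nf1KO gliomas. In cis p53/Nf1 gliomas it gave 6 higher and 11 lower. It also gave 5 lower in cis p53/Nf1 against p53 Nf1KO changes and 1 lower in cerebellum against forebrain.

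Leaving out 1 array at a time gave 3 to 6 members higher and 12 to 15 lower in cis p53/Nf1 gliomas (3 higher without Z1 forebrain 1 or 2), 3 to 6 higher and 2 to 5 lower in p53 gliomas (6 higher without glioma 1 or 4; 2 lower without any Z2 forebrain or without glioma 2 or 9), and 0 to 1 higher and 0 to 1 lower in p53 Nf1KO gliomas. Against p53 changes 2 to 4, and against p53 Nf1KO changes 2 to 4, were lower in cis p53/Nf1 gliomas, with 0 to 1 higher against the second. Cerebellum had 0 to 2 higher than forebrain (2 without cerebellum 2). Of all 17297 features, the same fits called 3021 to 3858 higher and 2882 to 3553 lower in cis p53/Nf1 gliomas. The ranges were 2522 to 3528 and 2836 to 4071 in p53 gliomas, and 330 to 1307 and 84 to 1204 in p53 Nf1KO gliomas. Features lower in cis p53/Nf1 gliomas ranged from 47 to 350 against p53 changes and from 158 to 608 against p53 Nf1KO changes. Cerebellum had 162 to 856 higher, the most without cerebellum 2. Of the 30 isoform balances 0 to 8 were called, 0 without any 1 array of set Z1, where the smallest possible p is larger by construction, and 8 without p53 glioma 1. The cause of the other shifts was not tested.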
